A study of Solanum lycopersicum with 4 samples.

Results

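The onset of ripening in tomato (Solanum lycopersicum) was described here by setting the breaker fruit, in which the first colour appears, against both of its neighbours in time, mature green fruit and fruit 7 days after breaker. The measure was the number of degradome tags on each cDNA. A cDNA was a transient member when its breaker total was at least 2-fold above both neighbours, or at least 2-fold below both, after the totals of each library had been centred on their median. Of the 5373 cDNAs in the series, 1201 were listed in all 3 libraries and could be compared, and 138 of these were transient members.

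Whole fruits of the variety Ailsa Craig, grown in a greenhouse on rockwool, gave 1 library at each of 4 stages: young fruit (5 days after pollination), mature green, breaker and 7 days after breaker. The labels name no treatment and no mutation at any stage. The last stage is labelled by its days after breaker, and the deposited tables call it red ripe. With 1 library per stage every value stands alone, so differences compare libraries, carry no standard deviation and were given no p-value. Whole fruit mixes flesh, skin and seed, and fewer cells of a type and less RNA per cell cannot be told apart in it.

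In PARE (parallel analysis of RNA ends), tags are read from the uncapped 5′ ends of RNA fragments that carry a poly(A) tail, so each tag marks a place where an mRNA was cut or was being broken down. A plant microRNA guides an Argonaute protein to slice its target opposite the tenth base of the small RNA, which leaves a pile of tags at that base. A cDNA's total counts every tag along it, whatever its origin, and therefore moves with the amount of the mRNA and with its decay, which this assay does not separate. At breaker, ethylene production of the tomato fruit climbs, chlorophyll breakdown begins and the walls soften.

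The tables list a cDNA in a library only where that library had a tag at a predicted small RNA site, and this set which cDNAs could be compared. The breaker library listed 1879 cDNAs, against 3379 in mature green and 2978 in fruit 7 days after breaker. Of 2132 cDNAs listed in both neighbours, 931 were not listed at breaker. Those 931 had median totals of 230 in mature green fruit and 214 in fruit 7 days after breaker, in tags per 10000000 tags (TP10M), against 420 and 461 TP10M for the cDNAs that breaker listed. The compared set was thus weighted towards cDNAs with more tags, and cDNAs without a tag at a listed site at breaker were left out of it. Another 254 cDNAs were listed at breaker and at neither neighbour, and no fold could be given for them.

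Over the 1201 compared cDNAs the median total was 420 TP10M for mature green, 337 TP10M for breaker and 461 TP10M for 7 days after breaker. Each library's totals were scaled to the mean of these medians. The compared cDNAs held 88.7% of all listed tags at breaker, against 62.9% in mature green and 69.6% in fruit 7 days after breaker. Of the genes of seed storage and seed maturation, 6 could be compared and 0 were transient. Those 6 had summed totals of 5872 TP10M at breaker, 162569 TP10M at mature green and 8101 TP10M at 7 days after breaker. Over all seed genes listed, a set that differs between libraries, the sum was 7084 TP10M at breaker (8 of 20 genes listed, 0.476% of all totals). It was 211830 TP10M at mature green (14 listed, 9.76%) and 11805 TP10M at 7 days after breaker (16 listed, 0.555%). No gene of the seed list stood at 0 where it was listed, and the part of the seed signal in the scaling of the other cDNAs was not tested.

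Of the 1201 compared cDNAs, 87 (7.24%) were at least 2-fold higher at breaker than in both neighbours and 51 (4.25%) were at least 2-fold lower than in both. The log2 difference between breaker and the mean of its neighbours had a median of 1.78 among the higher members (1.09 to 3.65) and of -1.51 among the lower members (-3.99 to -1.03), beside -0.14 over all compared cDNAs. The step was 4-fold or more against each neighbour for 22 of the higher and 6 of the lower members. On totals as deposited, without centring, the split turned round to 47 higher and 130 lower, and the median over all compared cDNAs moved to -0.53. All 47 were among the 87, and all 51 lower members were among the 130.

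Transient members were a minority of the differences at breaker. The breaker total was within 2-fold of both neighbours for 707 cDNAs. It was above mature green and within 2-fold of 7 days after breaker for 80, and below mature green and within 2-fold of 7 days after breaker for 126. It was above 7 days after breaker alone for 65 and below it alone for 60. The comparisons with mature green and with 7 days after breaker share the breaker library, so a breaker value that is off in either direction enters both. The neighbours lay within 2-fold of each other for 63 of the 87 higher members and 43 of the 51 lower members.

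**Figure D1:**
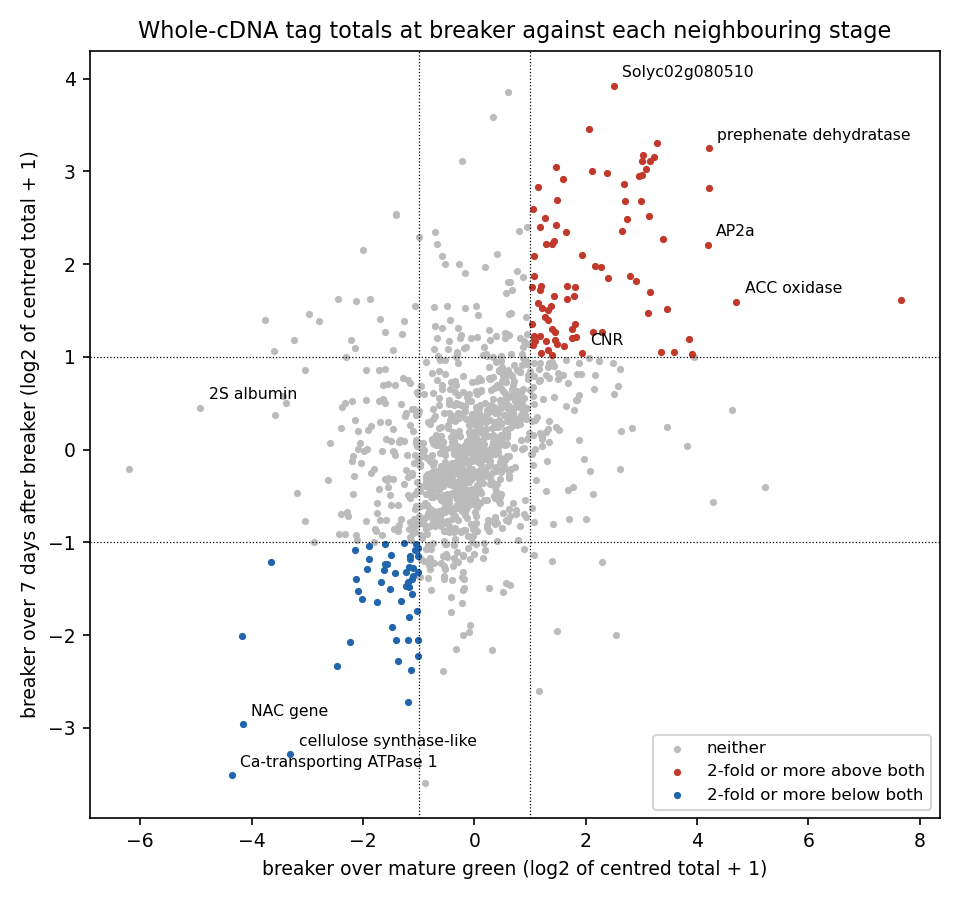
Each point is 1 of the 1201 compared cDNAs, with the log2 difference of breaker over mature green on the x axis and of breaker over 7 days after breaker on the y axis, from centred totals plus 1 TP10M. The dotted lines mark 2-fold; 87 cDNAs (red) lie above both and 51 (blue) below both, and the grey 2S albumin of seed lies far left at near 0 on the y axis.

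The largest higher difference belonged to Solyc11g066890, annotated as prephenate dehydratase, an enzyme on the route to phenylalanine. It had 197 TP10M in young fruit, 95 in mature green fruit, 1426 at breaker and 204 in fruit 7 days after breaker, which put breaker 12.6-fold above the mean of its neighbours on the centred scale (log2 difference 3.65). A cytochrome P450, Solyc11g069800, had 141, 2118 and 408 TP10M at mature green, breaker and 7 days after breaker, a 10.3-fold difference. Both genes were low on either side of breaker, and their young fruit totals were low too, at 237 TP10M for the P450.

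The gene with the highest breaker total among the 12 largest differences was Solyc03g044300, annotated AP2-like and known as AP2a, a transcription factor that restrains ethylene production and ripening in tomato and is a target of miR172. Its totals were 267 TP10M in young fruit, 364 in mature green fruit, 5359 at breaker and 1582 in fruit 7 days after breaker. The log2 difference from the mean of its neighbours was 2.89, with breaker 4.19 above mature green and 2.21 above 7 days after breaker. It stayed above its mature green and young fruit values a week later, so its return was partial. A hydroxyproline-rich glycoprotein, Solyc02g091700, of a class of proteins found in plant walls, had 686, 4648 and 779 TP10M at mature green, breaker and 7 days after breaker (log2 difference 3.05) and came back to near its starting level.

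The other 8 of the 12 largest higher differences carried little annotation. Solyc12g062300, Solyc00g006050, Solyc03g053140, Solyc03g053030, Solyc08g048260 and Solyc05g041190 were all annotated Unknown Protein, with log2 differences of 2.95 to 3.29. Solyc12g062300 had 299, 216, 1696 and 234 TP10M from young fruit to 7 days after breaker, and the other 5 had the same outline. Solyc02g080510 (446, 899, 4100 and 368 TP10M) and Solyc07g064650 (26, 21, 140 and 29 TP10M) were named only after an Arabidopsis clone, with log2 differences of 3.05 and 2.83.

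**Figure D2:**
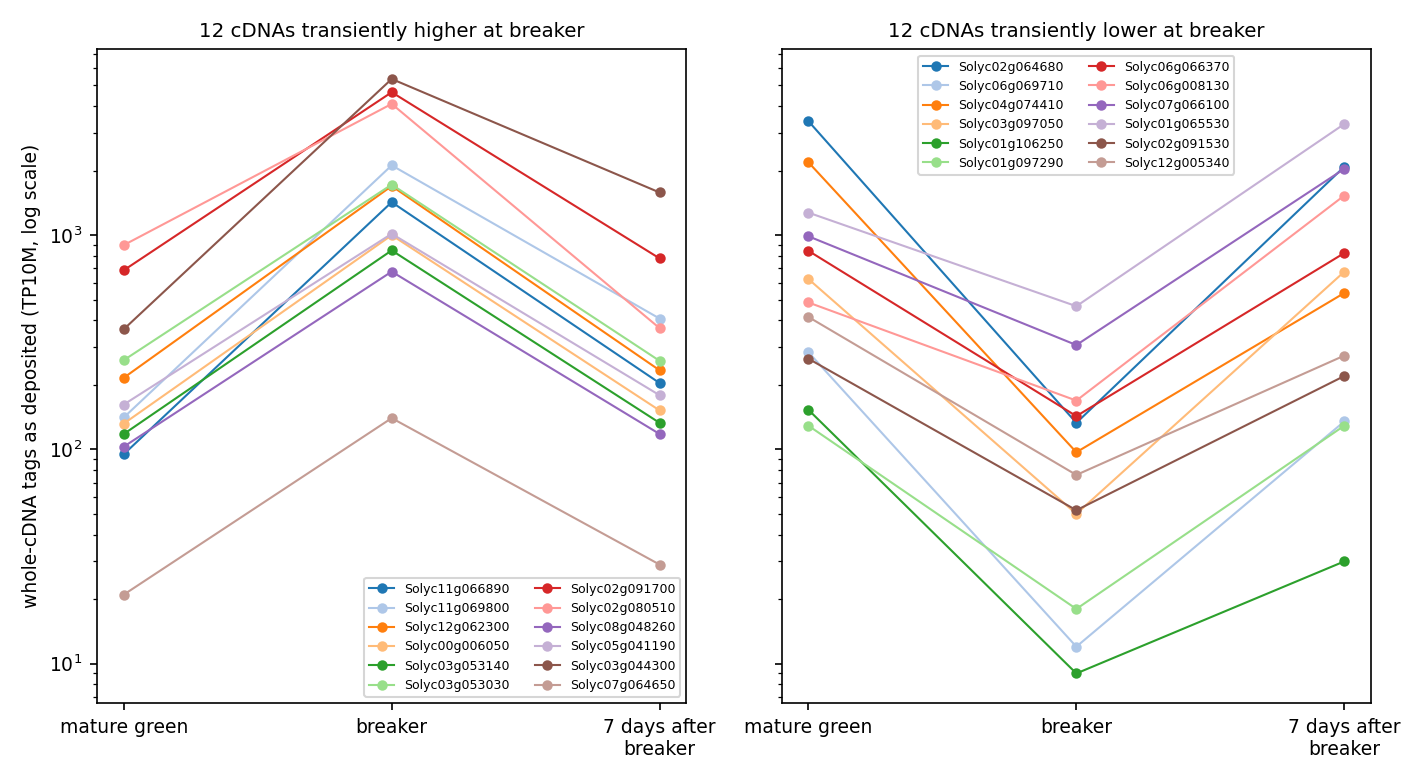
Deposited whole-cDNA totals in TP10M, on a log axis, at mature green, breaker and 7 days after breaker for the 12 cDNAs with the largest difference in each direction. On the left every line peaks at breaker, AP2a (Solyc03g044300) at 5359 TP10M; on the right every line dips, the calcium-transporting ATPase (Solyc02g064680) to 133 TP10M.

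The deepest dip was that of Solyc02g064680, annotated calcium-transporting ATPase 1, a pump that moves calcium across membranes. It had 4369 TP10M in young fruit, 3404 in mature green fruit, 133 at breaker and 2086 in fruit 7 days after breaker, a log2 difference of -3.99. All 3 other libraries lay far above breaker. A NAC transcription factor gene with a miR164 site, Solyc06g069710, had 407, 284, 12 and 135 TP10M over the same stages (log2 difference -3.68). Solyc04g074410, a fragment named after a rice protein, had 2331, 2188, 97 and 537 TP10M (log2 difference -3.46).

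A cellulose synthase-like gene, Solyc03g097050, had 624, 50 and 675 TP10M at mature green, breaker and 7 days after breaker, so its neighbours were alike and breaker was far below (log2 difference -3.29). A COBRA-like gene, Solyc01g065530, of a family anchored to the outer membrane face and known for its role in cellulose deposition, had 1274, 466 and 3302 TP10M (log2 difference -1.88). A GPI-anchored protein gene, Solyc07g066100, had 988, 307 and 2039 TP10M (log2 difference -1.89). The last pair were highest at 7 days after breaker, so breaker was a low point before a higher level. The COBRA-like gene had 648 TP10M in young fruit, near its breaker total on the centred scale (589 against 561 TP10M). The GPI-anchored protein gene had 1045 TP10M in young fruit.

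Also among the 12 largest lower differences, WRKY transcription factor 1 (Solyc06g066370) had 845, 143 and 825 TP10M at mature green, breaker and 7 days after breaker, and the SET domain protein SUVR2 (Solyc06g008130), of a histone methyltransferase family, had 485, 169 and 1531 TP10M. The beta-1 subunit of the AMP-activated protein kinase (Solyc02g091530), part of an energy-sensing kinase, had 265, 52 and 220 TP10M, and the GRAS gene Solyc12g005340 had 415, 76 and 274 TP10M. Their log2 differences ran from -2.16 to -1.80. An auxin responsive protein, Solyc01g097290 (1266, 129, 18 and 129 TP10M from young fruit on), and a B3 domain gene, Solyc01g106250 (2101, 153, 9 and 30 TP10M), stood apart because their young fruit totals were by far the highest. For these genes breaker was the low point of a decline from young fruit.

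The library from 5 days after pollination took no part in choosing the members, and 71 of the 87 higher and 43 of the 51 lower members were listed in it. On the centred scale, breaker was at least 2-fold above the young fruit total for 57 of the 71 higher members, while 21.1% of all 1044 cDNAs listed in 4 libraries had breaker that far above. Breaker was at least 2-fold below the young fruit total for 31 of the 43 lower members, against 23.5% of the same 1044. Because the breaker value that chose the members enters this comparison too, the shares are a description. Young fruit lay nearer the neighbours than breaker for 60 of the 71 higher and 35 of the 43 lower members. That count uses the breaker value too, and it has no share over the 1044 beside it, so it is only a description. Against the mean of the neighbours alone, the young fruit total had a median log2 difference of 0.04 for the higher members and of -0.10 for the lower members. The spread was wide: among the higher members it was 2-fold or more above that mean for 10 and below it for 14, and among the lower members above it for 5 and below it for 6.

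**Figure D3:**
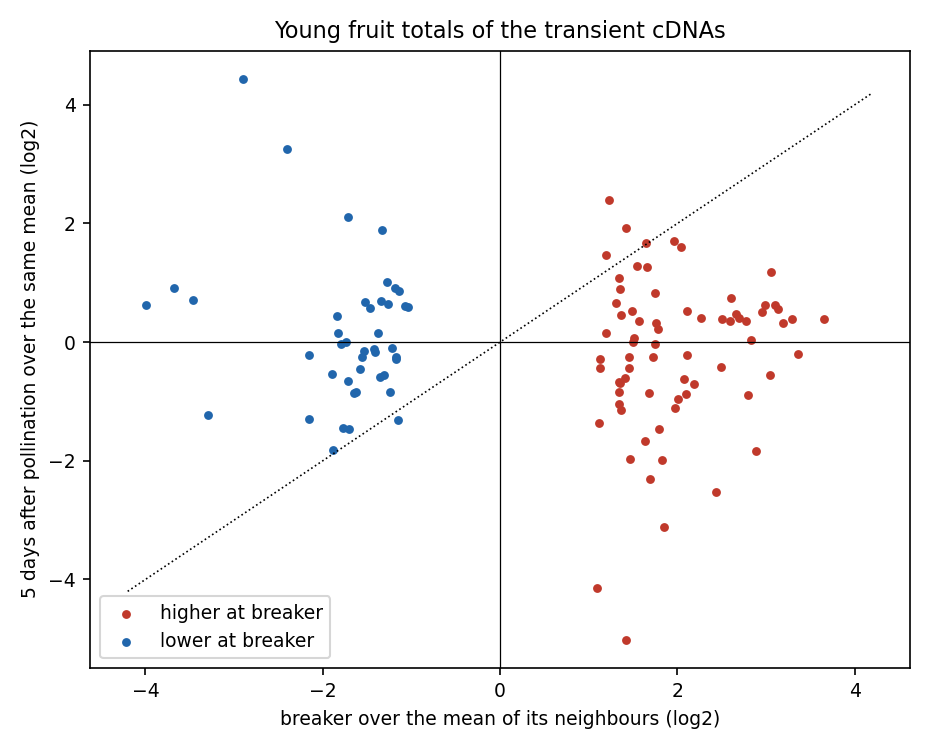
Each point is a transient cDNA also listed at 5 days after pollination (71 higher in red, 43 lower in blue), with the log2 difference of breaker from the mean of its neighbours on the x axis and that of young fruit from the same mean on the y axis. The dotted line marks equal differences; red points centre on a median of 0.04 and blue points on -0.10 on the y axis, with most of both nearer 0 than the line.

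Of the ripening genes chosen by annotation words, 21 were compared, and 4 (19.0%) were transiently higher and 0 lower, against 7.24% and 4.25% of all compared cDNAs, with a median log2 difference of 0.31 beside -0.14 over all compared cDNAs. Beside AP2a, they were an ACC oxidase, a beta-galactosidase and an AP2-like gene. The words included ethylene-responsive, through which AP2a, this AP2-like gene and other AP2-like genes entered by their annotation. The ripening gene E4, described below, was not matched, so the shares are those of a word list. ACC oxidase, which makes ethylene in the last step of its synthesis, was represented by Solyc07g049550 with 422 TP10M in young fruit, 474 in mature green fruit, 9934 at breaker and 4489 in fruit 7 days after breaker (log2 difference 2.44). A site on this cDNA had values identical to those of a site on another cDNA. How tags that match several cDNAs were assigned is not stated, so its total may include tags of other cDNAs. The beta-galactosidase Solyc12g008840, of a family that trims wall galactans, had 669, 304, 1837 and 710 TP10M (log2 difference 2.27). The AP2-like gene Solyc02g064960 had 304, 165, 300 and 77 TP10M, so its breaker total was close to that of young fruit, and it fell short of 2-fold on totals as deposited.

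Another ACC oxidase, Solyc07g049530, shows how the 2-fold rule falls. It had 1374, 16973 and 11612 TP10M at mature green, breaker and 7 days after breaker, 1.999-fold above the nearer neighbour and just short of the rule. Just inside it were the beta-glucanase Solyc01g059980 (408, 864 and 582 TP10M, 2.03-fold), the short-chain dehydrogenase Solyc07g047800 (1198, 14463 and 9669 TP10M, 2.05-fold) and the Unknown Protein Solyc09g018250 (101, 167 and 67 TP10M, 2.05-fold), all short of 2-fold on totals as deposited. Just outside were an isocitrate dehydrogenase, Solyc01g005560 (1030, 3441 and 2371 TP10M, 1.98-fold), and a dnaJ chaperone, Solyc04g076270 (228, 363 and 225 TP10M, 1.98-fold). On the lower side, the JMJD6 gene Solyc04g074490 (246, 98 and 559 TP10M), Solyc06g064810 (351, 140 and 425 TP10M) and Solyc02g049070 (313, 104 and 287 TP10M) were inside, each 2.01-fold below the nearer neighbour. Growth-regulating factor 3, Solyc08g075950 (382, 41 and 113 TP10M, 1.99-fold), an adenylate kinase-like gene, Solyc12g010380 (225, 51 and 140 TP10M, 1.99-fold), and Solyc09g011830 (102, 41 and 147 TP10M, 1.98-fold) were outside.

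The highest breaker totals among all members were those of 2 further genes, named here after their values had been seen. Solyc03g111720, annotated peptide methionine sulfoxide reductase and known as the ethylene-responsive ripening gene E4, had 321, 52424 and 23458 TP10M at mature green, breaker and 7 days after breaker (log2 difference 2.59) and was not listed in young fruit. Adenosylhomocysteinase, Solyc09g092380, which recycles the by-product of methylation reactions, had 4785, 5262, 50419 and 33237 TP10M from young fruit on (log2 difference 1.82) and fell short of 2-fold on totals as deposited. For both genes the value at 7 days after breaker was far above mature green, so breaker was the high point of a lasting step.

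Auxin genes had transient members in both directions, 4 higher and 2 lower of 12 compared (33.3% and 16.7%, against 7.24% and 4.25% of all compared cDNAs), with a median log2 difference of 0.57. All 4 higher members were auxin response factors (ARFs), the transcription factors that carry out auxin responses. ARF3 (Solyc09g007810) had 112, 184, 639 and 108 TP10M from young fruit to 7 days after breaker (log2 difference 2.49), and ARF16 (Solyc06g075150) had 74, 116, 282 and 50 TP10M (log2 difference 2.11). For both, all 3 other stages were low. ARF2 (Solyc03g118290) had 3229, 2493, 5008 and 3239 TP10M (2.29-fold), and ARF17 (Solyc11g013470) had 108, 143, 244 and 147 TP10M (log2 difference 1.13), smaller steps that fell short of 2-fold on totals as deposited. ARF8 (Solyc02g037530) was a lower member, with 1533, 450, 81 and 236 TP10M (log2 difference -1.71), as was the auxin responsive protein described above.

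Known classes of microRNA targets had 10 higher and 7 lower members among 60 compared, shares of 16.7% and 11.7% against 7.24% and 4.25% of all compared cDNAs, and a median log2 difference of -0.40. That median minus the one of all compared cDNAs was -0.26, and -0.0034 when cDNAs with a largest total under 50 TP10M were left out. Beside AP2a, the AP2-like gene and the ARFs, the higher members were the GRAS genes Solyc08g078800 (574, 231, 520 and 109 TP10M from young fruit on) and Solyc01g090950 (291, 216, 417 and 100 TP10M), a superoxide dismutase, Solyc11g066390 (1072, 547, 972 and 444 TP10M), and Solyc02g077920. The last is the squamosa promoter binding gene CNR, a regulator needed for tomato ripening and a target of miR156, with 38, 829, 2549 and 1698 TP10M (log2 difference 1.42). The young fruit totals of Solyc08g078800 and the superoxide dismutase were above those at breaker as deposited, and below them after centring. On totals as deposited, CNR, Solyc01g090950 and the superoxide dismutase fell short of 2-fold. The lower members included the gene annotated ARGONAUTE 1 with a miR403 site, Solyc02g069260, with 2317, 2258, 807 and 2649 TP10M (log2 difference -1.21), and the fragment of a resistance gene, Solyc11g065780, with 17, 14, 2 and 10 TP10M.

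Genes of photosynthesis had a median log2 difference of -1.06 over 9 compared, beside -0.14 over all compared cDNAs, with 7 of the 9 below 0. Among the 9, 2 were higher (22.2%) and 1 lower (11.1%), against 7.24% and 4.25% of all compared cDNAs. The oxygen-evolving enhancer protein 2, a part of photosystem II, was the lower member, with 3762, 4435, 1202 and 3867 TP10M (Solyc07g044860, log2 difference -1.41). The other direction was present here too, since ferredoxin-6 (Solyc05g055280; 500, 144, 370 and 163 TP10M) and the Q(B) protein of photosystem II (Solyc11g056500; 18, 36, 112 and 35 TP10M) were higher members. Of 4 marker genes of green tissue, breaker listed 3 with a sum of 589 TP10M, mature green listed 3 with 2693 TP10M, and 7 days after breaker listed 0, so none could be compared.

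Ubiquitin and proteasome genes had 4 higher (12.1%) and 0 lower members among 33 compared, against 7.24% and 4.25% of all compared cDNAs (median log2 difference 0.24). All 4 were annotated ubiquitin, the tag that marks proteins for breakdown. Solyc07g064130 had 10374, 28044 and 15572 TP10M at mature green, breaker and 7 days after breaker (log2 difference 1.51), and Solyc12g098940 had 1349, 3776 and 1533 TP10M (1.78). Solyc10g006480 had 5299, 9768 and 3944 TP10M (1.45) and Solyc12g099030 had 1229, 2703 and 1528 TP10M (1.36). Of the 4, Solyc12g098940 alone stayed 2-fold above both neighbours on totals as deposited. Ubiquitin genes are known as near-identical copies, and the sources used here do not say how tags that match several of them were assigned.

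Wall genes had 3 higher (25%) and 3 lower (25%) members among 12 compared, against 7.24% and 4.25% of all compared cDNAs. Their median log2 difference was -0.50, beside -0.14 over all compared cDNAs. The higher ones were the hydroxyproline-rich glycoprotein above and the beta-glucanases Solyc01g059980, which fell short of 2-fold on totals as deposited, and Solyc01g060020, which had 100, 723 and 303 TP10M at mature green, breaker and 7 days after breaker (log2 difference 2.25). The lower ones were the cellulose synthase-like gene above, another hydroxyproline-rich glycoprotein, Solyc01g009820 (170, 62 and 251 TP10M), and Solyc03g045060 (217, 83 and 241 TP10M), which is named a zinc finger protein and matched the list through a proline-rich domain in its annotation. Energy metabolism had 2 higher (12.5%) and 0 lower members among 16 compared, against 7.24% and 4.25% of all (median log2 difference 0.61). They were a sugar phosphate translocator, Solyc07g064270 (872, 2477 and 1460 TP10M), and an isocitrate dehydrogenase of the citrate cycle, Solyc11g011930 (444, 747 and 435 TP10M), and both fell short of 2-fold on totals as deposited.

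The remaining lists are given beside 7.24% higher and 4.25% lower over all compared cDNAs. Ribosomal protein genes had 1 higher and 0 lower members among 54 compared (median log2 difference -0.02), the member being an S10-like gene, Solyc12g096540, with 667, 1450 and 627 TP10M at mature green, breaker and 7 days after breaker. Genes of RNA handling had 0 members among 45, and genes of the cytoskeleton and chromatin 0 among 24, although the cytoskeleton and chromatin list had a median of -0.55. Translation factors had 0 higher and 1 lower among 23, and chaperones 0 higher and 1 lower among 39. Abscisic acid and stress genes had 0 among 12. Kinases had 2 higher (3.45%) and 3 lower (5.17%) among 58. Membrane transport genes had 3 higher (7.14%) and 1 lower (2.38%) among 42. Of the higher ones, Solyc06g084530 is annotated katanin and Solyc12g062300 Unknown Protein, and both matched through words of the annotation line. Transcription factors, taken by those words in the annotation line, had 6 higher (11.1%) and 5 lower (9.26%) among 54, shares above those over all compared cDNAs. The match took in the JMJD6 gene Solyc04g074490 as a lower member. It left out the ARFs and the NAC gene Solyc06g069710. AP2a, the AP2-like gene Solyc02g064960, CNR and the GRAS genes Solyc01g090950 and Solyc08g078800 were among the 6. These, and the lower members Solyc06g035620 and Solyc12g005340, were also counted as microRNA targets, so the lists overlap. The single compared gene of DNA methylation was not transient in its total.

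The higher members shared features of their gene models. Models of version 1, by the suffix of their identifier, made up 53 of the 87 higher members (60.9%), against 9 of the 51 lower members (17.6%) and 301 of the 1201 compared cDNAs (25.1%). Unknown Protein annotation held for 27 higher members (31.0%), against 3 lower members (5.88%). A listing under miR414 alone, a small RNA name with sites on 29.1% of the compared cDNAs, held for 29 higher members (33.3%), against 6 lower members (11.8%) and 206 of the compared cDNAs (17.2%). Sites whose values were identical to those of a site on another cDNA were present on 14 higher members (16.1%), against 1 lower member (1.96%) and 39 of the compared cDNAs (3.25%).

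The 3 features came together on 23 compared cDNAs, of model version 1, Unknown Protein annotation and miR414 listing alone, and 18 of these were higher members and 0 were lower. Their median totals were 94 TP10M in young fruit, 43 in mature green fruit, 155 at breaker and 56 in fruit 7 days after breaker, and their log2 differences had a median of 2.61 (-0.80 to 3.29). The same site values recurred among them: 1 TP10M at mature green, 10 at breaker and 0 in fruit 7 days after breaker were listed on Solyc01g020410, Solyc03g053030, Solyc07g018080 and Solyc12g062300. Whether the same tags were counted on several of these cDNAs cannot be told from the deposited values, so they may not be separate observations.

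Rates of transient members differed with annotation and model version. Of the 1129 cDNAs with an annotation, 60 were higher (5.31%) and 48 lower (4.25%), while of the 72 Unknown Protein cDNAs, 27 were higher (37.5%) and 3 lower (4.17%). Models of version 2 had 34 higher (3.78%) and 42 lower (4.67%) among 900, and models of version 1 had 53 higher (17.6%) and 9 lower (2.99%) among 301. AP2a, CNR, the ACC oxidase Solyc07g049550, ARF2 and E4 were all of version 2, as were ARF3 and ARF16 Solyc06g075150. Prephenate dehydratase, the cytochrome P450, the beta-galactosidase Solyc12g008840, ARF17, the GRAS gene Solyc08g078800, the superoxide dismutase, ferredoxin-6, the Q(B) protein, the S10-like gene, the isocitrate dehydrogenase Solyc11g011930 and all 4 ubiquitin genes were of version 1. With version 2 taken alone and centred on its own median, an alternative added after the data had been seen, 48 were higher and 30 lower of 900.

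**Figure D4:**
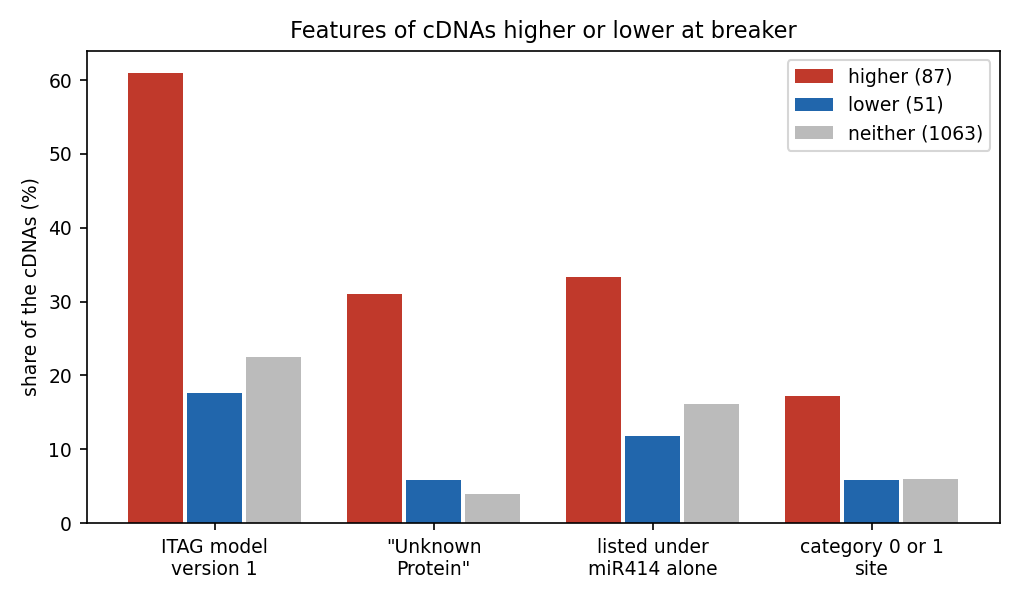
Bars give the share in percent of the 87 higher, 51 lower and 1063 other compared cDNAs that have each feature named on the x axis. Higher members exceed lower members on each of the 4 features, with 60.9% against 17.6% for model version 1 and 31.0% against 5.88% for Unknown Protein annotation.

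Single sites were compared in the same way. A site was compared where all 3 libraries listed it and its largest value was at least 5 TP10M, which held for 531 sites on 301 cDNAs. Of these, 108 (20.3%) were at least 2-fold higher at breaker than in both neighbours and 192 (36.2%) at least 2-fold lower, on values as deposited plus 1 TP10M. With the centring of the totals applied to the sites, the counts were 128 and 130, nearly equal, so the split depended on the scaling. The higher sites lay on cDNAs whose total was higher in 45 cases and between in 63, and the lower sites on cDNAs whose total was lower in 14, between in 173 and higher in 5. Most lower sites were small, and 8 of them reached 50 TP10M in any library, as did 6 of the higher ones.

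Those 6 large higher sites all lay opposite position 10 of the small RNA, where slicing leaves its end. The 108 higher sites as a whole were not gathered there. They were 27 of 169 compared at position 9, 34 of 213 at position 10 and 47 of 149 at position 11. The miR172 site at base 1384 of the AP2a cDNA (Solyc03g044300) had 164, 3353 and 465 TP10M at mature green, breaker and 7 days after breaker. The miR171 sites of the GRAS genes had 100, 433 and 32 TP10M at base 404 of Solyc08g078800 and 88, 338 and 33 TP10M at base 1578 of Solyc01g090950. The miR160 sites of the ARF16 genes had 54, 248 and 14 TP10M at base 1502 of Solyc06g075150 and 42, 145 and 10 TP10M at base 1313 of Solyc11g069500. The sixth was a miR396 site at base 1161 of Solyc02g062740, annotated as a DNA cytosine methyltransferase, with 17, 142 and 14 TP10M. At each of the 6, breaker stood far above both neighbours, and 7 days after breaker was below mature green at all of them except AP2a. Smaller higher sites were those of AP2a at base 1385, opposite position 9 (2, 40 and 11 TP10M), and of ARF3, Solyc09g007810, at base 1608 (13, 37 and 3 TP10M).

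The larger lower sites were of mixed kinds. Growth-regulating factor 4, Solyc08g005430, a member of a class that miR396 is known to slice, had 118, 7 and 15 TP10M at base 395, so the value stayed low after breaker. A type 2 metallothionein, Solyc09g010800, had 256, 44 and 232 TP10M at base 214 under miR398 while its total was 26380, 37324 and 22114 TP10M. The site was thus lowest at breaker and the whole cDNA highest. That site held 0.970%, 0.118% and 1.05% of the cDNA's tags and was not its highest position in any of the 3 libraries. The abscisic acid receptor PYL8, Solyc01g095700, had 141, 64 and 136 TP10M at base 916, opposite position 9 of miR156 and miR157, a site with an alignment penalty of 7, where lower penalties mark better matches. A heat shock protein 90, Solyc07g065840, had 49, 5 and 45 TP10M at base 1532 under miR396, with a penalty of 6.5. A vacuolar processing enzyme, Solyc08g065610, had 12, 3 and 87 TP10M at base 1491 under miR158, with a penalty of 7. Neither site was the highest position of its cDNA in any of the 3 libraries. A site of the 2S albumin of seed, Solyc08g080490, had 49, 0 and 1 TP10M, and its total was 91336, 2424 and 2423 TP10M. With the centring of the totals applied, the sites of growth-regulating factor 4, PYL8 and the 2S albumin fell short of 2-fold, and those of the metallothionein, the heat shock protein and the vacuolar processing enzyme stayed past it.

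The share of a cDNA's tags that lay at its site does not depend on the scaling of the library. It was computed for 47 sites that were the highest position of their cDNA (category 0, or category 1 where several positions tie) in at least 1 of the 3 libraries, on cDNAs with at least 20 TP10M in each. The library through which a site entered bears on the direction of its share. All 7 sites that entered through breaker alone had their highest share there, and of the 21 that entered through a neighbour alone, 18 had their lowest share at breaker and 3 lay between. The other 19 sites were of category 0 or 1 in all 3 libraries, a restriction made after the values had been seen, and their share was highest at breaker for 12, lowest for 2 and between for 5. By 2-fold or more the share was higher at breaker for 1 of the 19 (5.26%) and lower for 1 (5.26%). Some of the 47 sites had values identical to those of another and may be the same tags. Over all 47 the share was highest at breaker for 19, lowest for 20 and between for 8. With identical site values counted once, 43 sites were left, with 17 highest, 18 lowest and 8 between. Among all category 0 or 1 sites compared by their value, entered in the same way, 10 of 61 (16.4%) were higher and 18 (29.5%) lower as deposited, and 13 were higher and 11 lower with the centring of the totals.

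Among those 19 sites, both miR160 sites and both miR171 sites had their highest share at breaker. The miR156 and miR157 sites had 2 highest and 2 between of 4, and the families of miR172 and miR396 each had 2 highest, 1 lowest and 1 between of 4. The miR172 sites of Solyc02g064960 and Solyc02g093150 had identical values, so they may not be separate observations. Counts of this size are a description of single sites.

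For several higher members the extra breaker tags lay at the site. At ARF16, Solyc06g075150, 46.6% of the tags were at the site at mature green, 87.9% at breaker and 28.0% in fruit 7 days after breaker, and the tags elsewhere on the cDNA were 62, 34 and 36 TP10M. At the GRAS gene Solyc08g078800 the shares were 43.3%, 83.3% and 29.4% with 131, 87 and 77 TP10M elsewhere, and at Solyc01g090950 they were 40.7%, 81.1% and 33.0% with 128, 79 and 67 TP10M elsewhere. At these 3 cDNAs the tags elsewhere were fewer at breaker than at mature green, and the site alone met the rule. ARF17, Solyc11g013470, had shares of 80.4%, 84.4% and 34.7%. The cytosine methyltransferase Solyc02g062740 had shares of 6.37%, 55.0% and 7.41% on a total of 267, 258 and 189 TP10M, so it was no member by its total although its site was 3.12 higher on the log2 scale.

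At other members the tags elsewhere on the cDNA were higher at breaker than in both neighbours, whether or not the site was. AP2a had shares of 45.1%, 62.6% and 29.4% at mature green, breaker and 7 days after breaker and 200, 2006 and 1117 TP10M away from its site, so both parts were higher at breaker. CNR had nearly level shares of 13.4%, 16.9% and 13.0%, with 718, 2118 and 1477 TP10M elsewhere. The AP2-like gene Solyc02g064960 had 133, 109 and 23 TP10M at its miR172 site and 32, 191 and 54 TP10M elsewhere, and its share was 80.6%, 36.3% and 29.9%. Its site values are the same as those of Solyc02g093150, so tags of that site cannot be assigned to either gene. Superoxide dismutase Solyc11g066390 had 29, 2 and 7 TP10M at its miR398 site and 518, 970 and 437 TP10M elsewhere, a share of 5.30%, 0.206% and 1.58%, and it entered through mature green alone. The receptor-like kinase Solyc01g005870 had 27, 8 and 30 TP10M at its miR6022 site, values it shares with 2 related genes, and 77, 183 and 81 TP10M elsewhere. That site entered through both neighbours and not through breaker, and the kinase total fell short of 2-fold as deposited. Of the 7 higher members among the 19 sites, the tags away from the site were 2-fold higher than in both neighbours for 2 and not for 5.

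**Figure D5:**
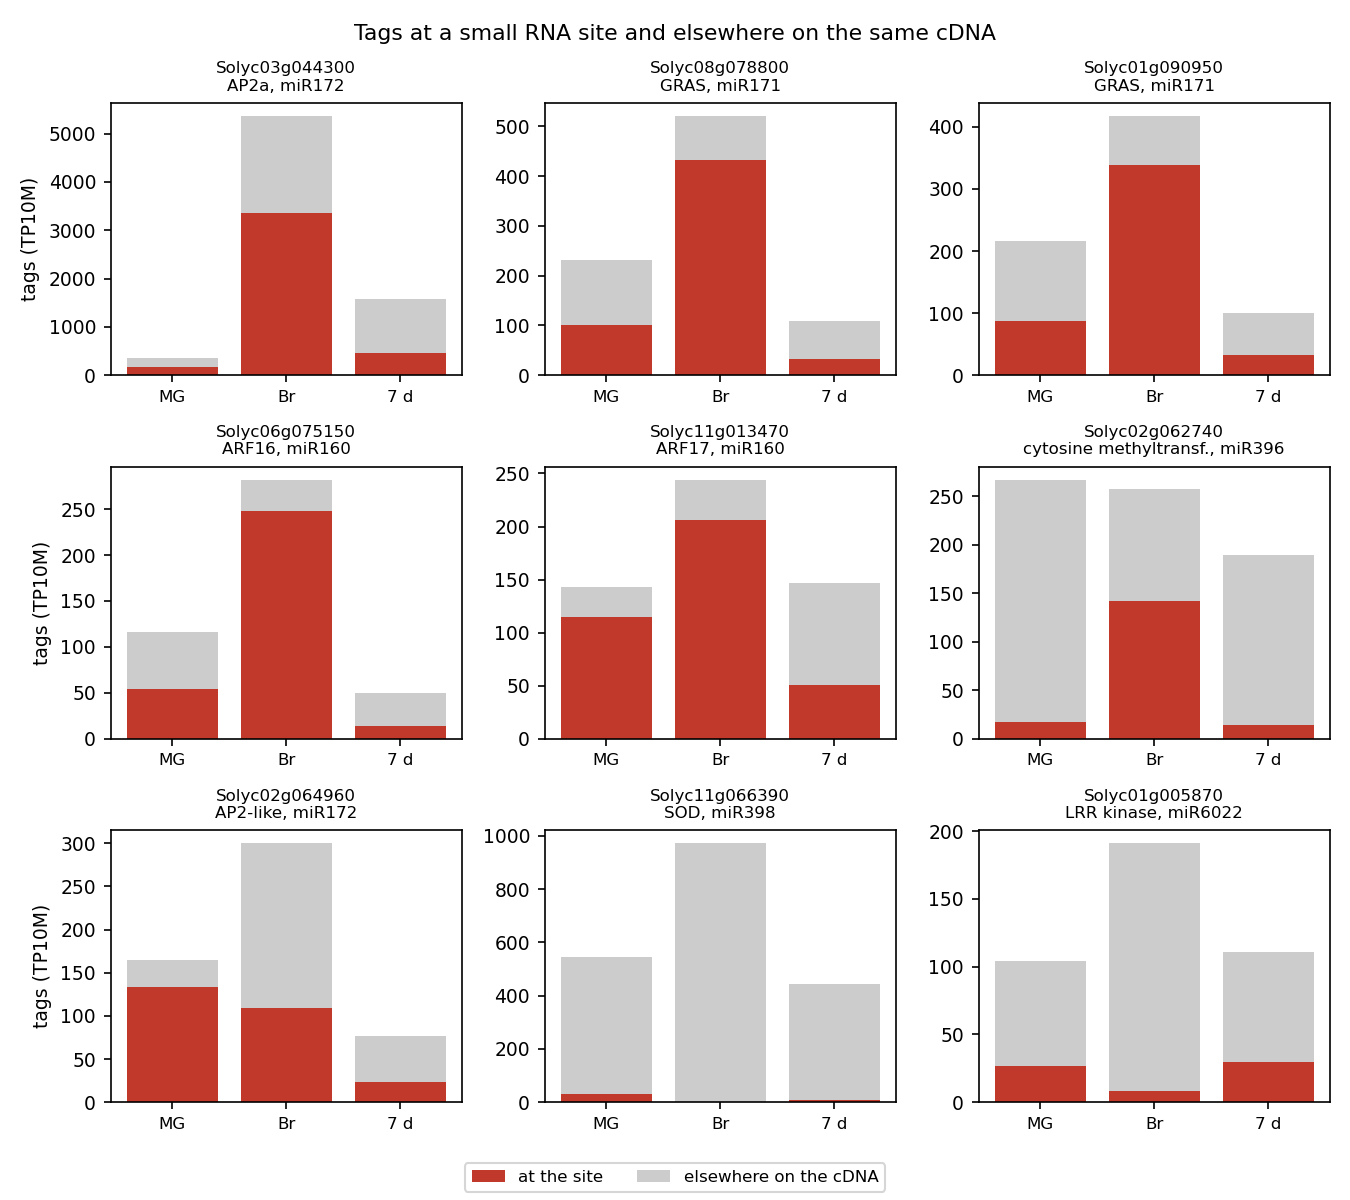
Stacked bars give deposited TP10M at a small RNA site (red) and elsewhere on the same cDNA (grey) at mature green (MG), breaker (Br) and 7 days after breaker (7 d) for 9 cDNAs named in the text, each on its own axis from 0. The red part dominates the breaker bars of the GRAS and ARF genes, while the grey part makes the breaker bars of superoxide dismutase and the receptor-like kinase.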

How the data were processed

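Degradome (PARE) libraries of whole tomato fruit, 1 per stage, were analysed from 3 deposited tables, for small RNA positions 9, 10 and 11; per the file headers these are CleaveLand results on ITAG2.3 cDNAs. Tag values, per the file headers, are scores in tags per 10000000 tags (TP10M) at a site and over the whole cDNA, which the authors had rounded to whole numbers. The p-values and q-values the authors deposited for sites come from CleaveLand, per the file headers, and were not used. The submitters' processing notes name CASAVA 1.8.0. The sources used here give no aligner, no rule for tags that match several cDNAs and no library totals. The depth is therefore unknown and no counting interval was computed. Sequences of small RNAs and cDNAs were not used here.

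After 7675 filler lines had been dropped, 12952 entries on 12619 distinct sites, under 49 small RNA names, were pooled with Python 3.11.15 and pandas 2.3.3. Each cDNA had 1 total per library. Totals of the 1201 cDNAs listed in all 3 libraries were divided by the library's median and multiplied by the mean of the 3 medians (406 TP10M), and young fruit was centred likewise. Log2 differences used a pseudocount of 1 TP10M, which understates those of low totals. The code for the calls was run on simulated totals with planted changes well past 2-fold and little noise. That run checks the code alone and gives no error rate for these libraries. Gene lists were matched by words in the whole annotation line. The genes named are the 12 largest differences per direction with a total of at least 50 TP10M, up to 3 members of each list, members with a category 0 or 1 site and the 10 largest transient sites per direction; the text gives those that carry a result, and any other gene was named after its values were seen. Members and lists were chosen with earlier results of these data known. Alternatives changed the centring, the fold, the pseudocount, the minimum, the tables and the cDNAs used.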

Additional observations from a re-analysis of the deposited data

How the results depend on the processing

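No paired analysis was possible because each stage had 1 library and no test was run, so leaving out a replicate was not possible either. The counts of transient totals, 87 higher and 51 lower, depended most on scaling and fold. They were 47 and 130 without centring, and 58 and 93 with the median over all listed cDNAs. With a fold of 1.5 they were 167 and 138, and with a fold of 3 they were 37 and 8. The position 10 table alone gave 31 higher and 35 lower of 555 cDNAs. Models of the second version alone, an alternative added after the data had been seen, gave 48 and 30. Median-of-ratios scaling kept all 87 higher and gave 93, and kept 41 of the 51 lower. Transient sites were 108 higher and 192 lower, and 69 and 100 of 261 with a minimum of 10 TP10M. Counts stayed within 1.5 times of these with the other pseudocounts and minimums, with identical values counted once and without Unknown Protein cDNAs. Of the 56 named members, 12 lost their call without centring and none changed sign under any alternative run. The causes were not tested. The unknown depth limits all small values: how many tags lie behind a site of 5 TP10M or a total under 20 TP10M cannot be told.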
